A study of Mus musculus with 25 samples.

Results

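Cadherins and protocadherins, the calcium-dependent adhesion receptors of the cell surface, were followed through retinal development in sorted mouse cells. The members were all genes whose symbols consist of Cdh and a number, or of Pcdh with its number or cluster letters. The rule found 90 of 28446 genes in the RNA table, 93 of 23284 genes in a table of ATAC-seq counts over exons, and 98 of 28329 regions of 10 kb around annotated gene starts, which belong to the same 93 genes. The 90 genes with RNA values were 5 type I classical cadherins (Cdh1, Cdh2, Cdh3, Cdh4 and Cdh15), 13 type II cadherins, 5 other cadherins, 55 clustered protocadherins (13 alpha, 22 beta and 20 gamma), 9 delta protocadherins and 3 other protocadherins. Pcdha10, Pcdhgb8 and Pcdhgc4 had ATAC values only.

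Retinas of CD1 mice, an outbred strain, had been sorted on GFP. GFP+ cells were labelled as retinal progenitor cells and GFP- cells as post-mitotic retinal cells, and the labels used here do not name the GFP reporter or say whether replicates were separate animals. RNA-seq covered both sorts at embryonic days 14 and 18 (E14, E18) and postnatal day 2 (P2), with 2 libraries in each of the 6 groups, 12 in all. ATAC-seq, which counts cuts made by a transposase in accessible chromatin, covered GFP+ cells in 13 libraries. E10 had 1 of them (labelled as embryonic day 10 or 11), and 2 came from each later stage, which were E12.5, E14 and E16.5, then E18, and after birth P0 and P2. The labels name no treatment and no other allele for any group. The p-values below measure the spread between these samples, which may be technical, and in bulk RNA fewer cells of a type cannot be told apart from less RNA per cell.

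Classical cadherins bind the same or a related cadherin on the neighbouring cell and hold on to the actin cytoskeleton through catenins, and N-cadherin (Cdh2) is the main one of the neuroepithelium. Clustered protocadherins are made from arrays of alternative first exons, of which each neuron uses a small set, and the resulting surface code lets branches of one retinal neuron recognise and avoid each other. Delta protocadherins and type II cadherins are expressed in subsets of neurons and take part in the sorting of cells and connections.

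1 RNA library stood apart from its label. The library labelled E14 GFP- replicate 2 had a mean level of 10 progenitor markers of 7.25 on the log2(FPKM + 1) scale, where FPKM is fragments scaled by transcript length and by library size. The GFP+ libraries had 7.09 to 8.15 and the other GFP- libraries 4.04 to 6.67. Its mean over 8 general neuron markers was 3.08, against 5.66 to 8.84 in the other GFP- libraries and 3.03 to 4.52 in GFP+. It also carried lens markers (mean 5.49 over 10 genes) and mesenchyme markers (4.20 over 9 genes). Its means of pigment epithelium markers (3.33 over 8 genes) and surface epithelium markers (1.55 over 8 genes) were the highest of the 12 libraries. E14 GFP+ replicate 2 had a lens mean of 1.75, and the lens mean was 0.08 to 0.28 in the other 10 libraries. Every RNA comparison is therefore given for all 12 libraries and again without the library labelled E14 GFP- replicate 2. Values of a group are given for replicate 1 and then replicate 2, so the second value of E14 GFP- is always that of this library. In the second fit E14 GFP- has 1 library, which is assumed to vary like those of the other groups. Both fits keep E14 GFP+ replicate 2, which also differed from E14 GFP+ replicate 1. On the log2 scale these replicates correlated at 0.950, against 0.993 and 0.988 for the GFP+ replicates at E18 and P2. Sfrp2 had 238 FPKM in replicate 1 and 1459 in replicate 2, and Fgf15 had 1093 and 256. Comparisons with E14 GFP+ rest on this pair. The spread of each gene is estimated over all groups, so the E14 pairs also enter the standard errors at E18 and P2. ATAC counts over exons totalled 1474790 to 15915391 per library and those over start regions 11176227 to 94662422; the RNA values carry no depth.

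Of the 90 members, 37 reached a group mean of 5 FPKM, 78 passed the filter of 1 FPKM in at least 2 libraries, and 11 stayed under 1 FPKM in every library. Cdh2 and Cdh11 had the highest means over the 12 libraries, followed by Cdh20, Pcdh9, Pcdhgc3 and Pcdh7. FPKM is scaled by length, so levels of different genes can be set side by side. Of the 37, 17 were clustered protocadherins, and Pcdhac2 was the only alpha member among them.

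**Figure D1:**
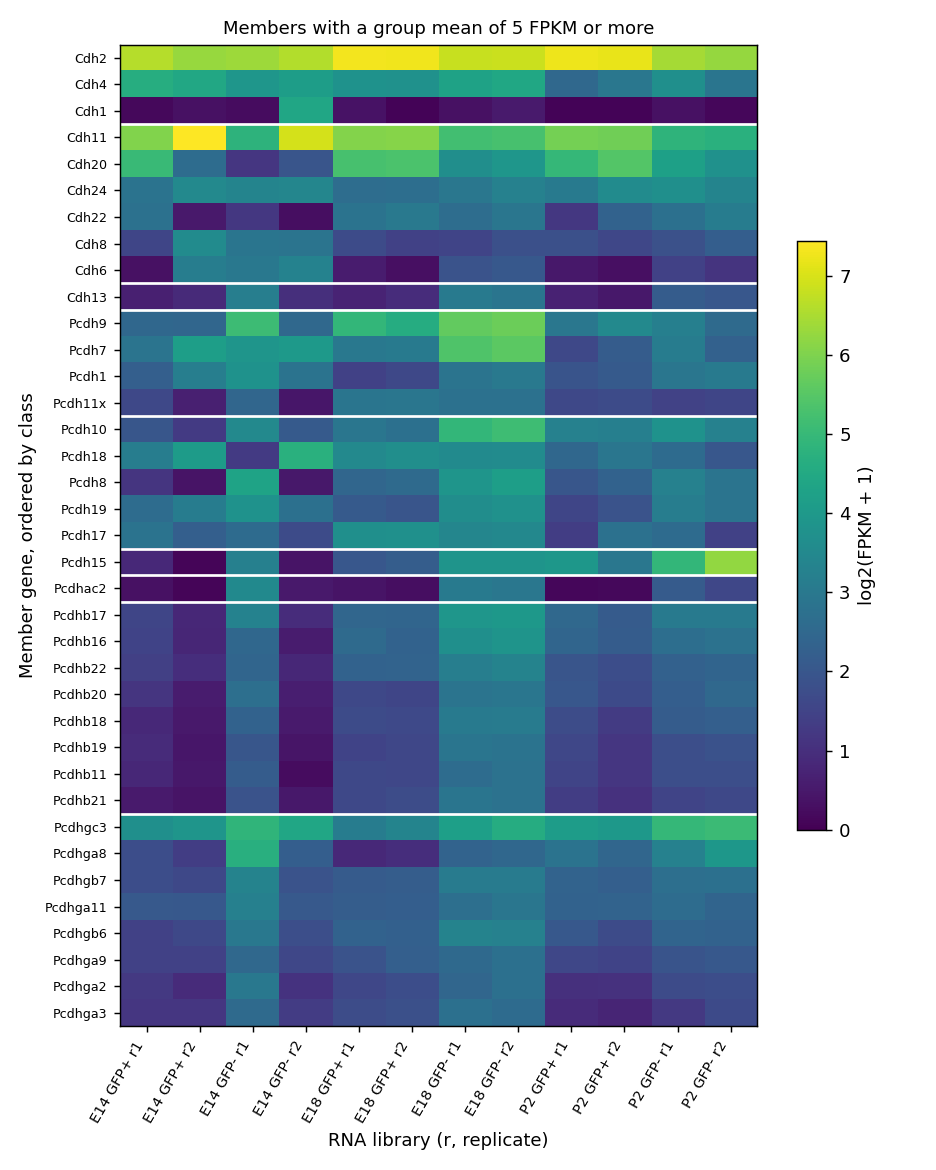
Level of the 37 members with a group mean of at least 5 FPKM (rows, ordered by class, white lines between classes) in each of the 12 RNA libraries (columns), as log2(FPKM + 1). Cdh2 is bright in every column, and the column of the library labelled E14 GFP- replicate 2 is dark in the alpha and beta rows, like the GFP+ columns.

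Most members had lower levels in progenitors than in post-mitotic cells, and some of the most abundant had higher ones. At E18 and at P2 alike, 64 of the 78 members tested had both GFP+ libraries below both GFP- libraries, against 26.8% of all 14276 genes tested. Some of the 64, such as Cdh12, Cdh13, Cdh18 and the alpha protocadherins, passed the filter only through GFP- libraries, which favours this order. The opposite order at both ages was seen for 4 members, against 28.1% of all genes. In limma with a false discovery rate of 0.05 over all genes tested, which is the threshold throughout, the 12-library fit called 5 members lower in GFP+ at E18 (background 2.49%) and none higher: Pcdh7, Pcdh10, Pcdh19, Pcdha8 and Pcdhgc3. The same fit called Cdh2 higher at P2 (background 0.112%). Leaving out any 1 of the 4 libraries compared ended every one of these E18 and P2 calls, as did a pseudocount of 0.1 at E18. At E14 limma called no member and none of the 14276 genes, although 12 members and 2246 genes had an unadjusted p under 0.05.

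Without the library labelled E14 GFP- replicate 2, limma called many more members and many more genes. At E14, 58 of 78 members were lower and 4 higher in GFP+, against 24.7% and 23.9% of 14109 genes. At E18, 60 were lower (background 22.3%) and 1 higher (background 20.3%). At P2, 29 were lower (background 13.7%) and 1 higher (background 10.2%). Members that passed the filter only through GFP- libraries, such as Cdh12, Cdh13, Cdh18 and the alpha genes, are among the 78. For them the filter favours lower GFP+ values, so their calls are not separate support. The median log2 difference between sorts over the 78 members was -0.93 at E18 and -0.45 at P2, and 0.00 and 0.00 over all genes tested. The neuron markers moved with this difference, as given above; their part in it was not tested.

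N-cadherin, Cdh2, was the most abundant member in 10 of the 12 libraries, and Cdh11 in the other 2, both of them E14 libraries numbered 2. Its level was 97.4 and 77.4 FPKM in E14 GFP+, 81.6 in E14 GFP- replicate 1 and 95.98 in the library labelled E14 GFP- replicate 2. At E18 it had 158 and 155 FPKM in GFP+ and 113 and 115 in GFP-, and at P2 153 and 146 FPKM in GFP+ and 86.7 and 75.3 in GFP-. The sorts overlapped at E14 and were fully apart at E18 and P2, with progenitors higher. The log2 difference at P2 was 0.88 ± 0.15 (± standard error throughout; limma, adjusted p = 0.0333), and at E18 it was 0.45 ± 0.15 (adjusted p = 0.11, or 0.0229 without the library labelled E14 GFP- replicate 2).

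R-cadherin, Cdh4, a type I cadherin known from the early eye, had less RNA in older progenitors. It had 24.1 and 20.9 FPKM in E14 GFP+, 12.98 and 12.7 in E18 GFP+ and 4.66 and 6.81 in P2 GFP+, so that the 3 ages did not overlap. In GFP- cells it had 14.01 and 16.8 at E14, 18.4 and 20.5 at E18 and 11.95 and 6.43 at P2. Cdh4 fell in GFP+ from E14 to P2, with a log2 change of -1.81 ± 0.28 (limma, adjusted p = 0.0272), and in GFP- from E18 to P2, with -1.06 ± 0.28 (adjusted p = 0.0462). Leaving out any 1 of the 4 GFP+ libraries ended the first call.

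The other type I cadherins were low outside 2 libraries. E-cadherin, Cdh1, the cadherin of epithelia, was at 20.01 FPKM in the library labelled E14 GFP- replicate 2 and at 0.0429 to 0.46 in the other 11, so it did not pass the filter. P-cadherin, Cdh3, was at 5.43 in that library and 4.02 in E14 GFP+ replicate 2, and at most 1.78 elsewhere. These are the 2 libraries with lens markers. The library labelled E14 GFP- replicate 2 also had the highest pigment and surface epithelium means. The part of RNA from these tissues was not tested. M-cadherin, Cdh15, known from muscle, did not exceed 0.731 FPKM.

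Among type II cadherins, Cdh11 and Cdh20 had the higher values in progenitors. Cdh11, which is widespread in mesenchyme and neuroepithelium, had 65.9 and 67.5 FPKM in E18 GFP+ against 35.8 and 37.6 in GFP-, and 58.8 and 56.2 in P2 GFP+ against 27.5 and 25.3 in GFP-. At E14 its libraries disagreed, with 64.7 and 173 in GFP+ and 26.8 and 124 in GFP-, and the higher value of each pair came from the library numbered 2. The sorts were apart at E18 and P2 by more than their replicates, with log2 differences of 0.84 ± 0.64 and 1.10 ± 0.64, but neither passed the test (limma, adjusted p = 0.381 and 0.431). These standard errors are shared by all groups and include the distance between the E14 replicates. Without the library labelled E14 GFP- replicate 2, Cdh11 was called higher in GFP+ at E14 (1.94 ± 0.43, adjusted p = 0.00586) and was not called at E18 (0.0856) or P2 (0.0546).

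Cdh20 had 31.9 and 5.16 FPKM in E14 GFP+ and 1.28 and 2.88 in E14 GFP-. At E18 it had 37.6 and 39.3 FPKM in GFP+ and 11.7 and 14.1 in GFP-, and at P2 30.2 and 42.9 FPKM in GFP+ and 17.7 and 12.5 in GFP-. GFP+ was above GFP- at each age without overlap, and the log2 differences of 1.51 ± 0.66 at E18 and 1.22 ± 0.66 at P2 did not pass the test (limma, adjusted p = 0.168 and 0.404). At E14 it was called without the library labelled E14 GFP- replicate 2 (2.64 ± 0.76, adjusted p = 0.0192). The E14 GFP+ replicates themselves lay far apart, and the standard errors at E18 and P2, shared by all groups, include that distance.

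Cdh18 and Cdh12, sparse type II cadherins of neurons, were near 0 in all GFP+ libraries. Cdh18 had at most 0.0667 FPKM in any GFP+ library, against 6.41 in E14 GFP- replicate 1, 2.66 and 3.59 in E18 GFP- and 0.772 and 2.33 in P2 GFP-. Cdh12 stayed at or under 0.118 in GFP+ and had 1.22 in E14 GFP- replicate 1, 0.698 and 0.862 in E18 GFP- and 1.87 and 1.26 in P2 GFP-. Both genes passed the filter only through GFP- libraries, which favours lower GFP+ values in order and in tests. The sorts did not overlap, except that the library labelled E14 GFP- replicate 2 had 0.0918 for Cdh12. Without it, Cdh18 was lower in GFP+ at E18 with a log2 difference of -1.99 ± 0.27 (limma, adjusted p = 0.000739) and Cdh12 at P2 with -1.29 ± 0.16 (adjusted p = 0.00095); with it, the adjusted p were 0.116 and 0.0883.

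Cdh24 had 5.27 and 5.41 FPKM in GFP+ and 6.8 and 8.69 in GFP- at E18, and Cdh22 6.18 and 7.11 FPKM in GFP+ and 5.27 and 6.64 in GFP-. The sorts of Cdh24 were apart at E18 and those of Cdh22 overlapped, and limma called neither there with all 12 libraries (adjusted p = 0.293 and 0.904). At P2 Cdh22 had 1.32 and 4.02 FPKM in GFP+ and 5.73 and 7.67 in GFP-, with the sorts apart and GFP+ lower in level, while Cdh24, with 7.47 and 11.1 FPKM in GFP+ and 11.99 and 9.17 in GFP-, overlapped (adjusted p = 0.439 for Cdh22). Cdh6 had 0.255 and 7.85 in E14 GFP+ and 6.9 and 8.91 in E14 GFP-, and at most 3.11 later. Cdh8 had 1.95 and 11.02 in E14 GFP+ and 6.41 and 6.24 in E14 GFP-, and at most 3.65 later. Both genes thus had their highest values at E14, where the GFP+ replicates disagreed. Cdh7, Cdh9 and Cdh10 did not exceed 6.96 FPKM in any library. VE-cadherin, Cdh5, which defines endothelium, did not exceed 0.489 FPKM, and Cdh19 did not exceed 0.0991.

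T-cadherin, Cdh13, is held in the membrane by a lipid anchor and lacks the catenin-binding tail. It had 0.572 and 0.867 FPKM in E14 GFP+ and 8.14 and 0.996 in E14 GFP-. At E18 it had 0.658 and 0.914 FPKM in GFP+ and 7.39 and 6.41 in GFP-, and at P2 0.641 and 0.388 FPKM in GFP+ and 3.53 and 3.04 in GFP-. Every GFP+ library lay below every GFP- library at E18 and at P2, with a log2 difference of -2.15 ± 0.58 at E18 (limma, adjusted p = 0.0748, or 7.72e-05 without the library labelled E14 GFP- replicate 2). Cdh13 reached 1 FPKM in no GFP+ library and passed the filter only through GFP- libraries, which favours lower GFP+ values in order and in tests. Cdh16, Cdh17, Cdh23 and Cdh26 did not exceed 0.473 FPKM.

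The delta-1 protocadherins Pcdh7 and Pcdh9, long-tailed members of the non-clustered group, peaked in post-mitotic cells at E18. Pcdh7 had 6.95 and 7.21 FPKM in E18 GFP+ against 41.3 and 46.8 in E18 GFP-. At P2 it had 2.03 and 3.45 FPKM in GFP+ and 7.8 and 3.95 in GFP-, and at E14 6.29 and 16.9 FPKM in GFP+ and 13.6 and 15.2 in GFP-. The E18 GFP- libraries were above all others, and at E14 the sorts overlapped. Pcdh7 was lower in GFP+ at E18, with a log2 difference of -2.48 ± 0.43 (limma, adjusted p = 0.0293), and fell in GFP- from E18 to P2, with -2.77 ± 0.43 (adjusted p = 0.0055).

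Pcdh9 had its highest values in the same libraries. It had 49.5 and 53.4 FPKM in E18 GFP- and 8.21 and 4.93 in P2 GFP-, and 29.5 and 23.4 in E18 GFP+ and 6.69 and 10.2 in P2 GFP+. Its E14 values were 4.6 and 4.52 in GFP+ and 33.5 and 4.71 in GFP-. The sorts did not overlap at E18 and did at P2. In GFP- cells Pcdh9 fell from E18 to P2 with a log2 change of -2.83 ± 0.69 (limma, adjusted p = 0.0352).

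Pcdh1 was lower in GFP+ at E18 (1.73 and 2.04 FPKM) than in GFP- (6.22 and 7.003) only in the fit without the library labelled E14 GFP- replicate 2 (limma, -1.40 ± 0.28, adjusted p = 0.00419, against 0.0748 with all 12). Pcdh11x, an X-linked member, had 6.37 and 6.59 FPKM in GFP+ and 5.85 and 5.89 in GFP- at E18, and between 1.78 and 2.24 in the 4 P2 libraries. The 4 E18 libraries of Pcdh11x were all above the 4 P2 libraries, and its change from E18 to P2 was called in neither sort with all 12 libraries (limma, adjusted p = 0.246 in GFP+ and 0.204 in GFP-).

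Of the delta-2 protocadherins, whose tails bind the WAVE actin-regulating complex, Pcdh10 and Pcdh19 were lower in progenitors at E18. Pcdh10 had 6.64 and 5.77 FPKM in GFP+ against 29.5 and 34.2 in GFP-, and Pcdh19, the gene of an X-linked epilepsy in humans, had 3.28 and 2.9 against 11.6 and 12.5. The differences were -2.19 ± 0.44 and -1.68 ± 0.35 log2 units (limma, adjusted p = 0.0409 and 0.0419). At P2 Pcdh10 had 8.62 and 8.23 FPKM in GFP+ and 12.98 and 8.67 in GFP-, and Pcdh19 1.92 and 2.74 FPKM in GFP+ and 7.86 and 6.23 in GFP-. At P2 the sorts of Pcdh19 were apart, while those of Pcdh10 nearly met.

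Pcdh8 had 1.23 and 0.318 FPKM in E14 GFP+ and 18.99 and 0.382 in E14 GFP-. At E18 it had 4.51 and 4.93 FPKM in GFP+ and 13.6 and 16.9 in GFP-, and at P2 2.94 and 4.11 FPKM in GFP+ and 8.63 and 6.28 in GFP-. Post-mitotic libraries were above progenitor libraries at each age, except for the library labelled E14 GFP- replicate 2. The E18 difference of -1.50 ± 0.99 was called only without that library (limma, adjusted p = 0.00314, against 0.315). Pcdh17 had 12.1 and 12.3 FPKM in GFP+ and 9.58 and 10.1 in GFP- at E18, with GFP+ above, and Pcdh18 had 10.3 and 11.9 FPKM in GFP+ and 10.9 and 10.96 in GFP-, with overlapping sorts. Pcdh18 at E14, with 7.84 and 16.01 FPKM in GFP+ and 1.4 and 25.2 in GFP-, was called higher in GFP+ only without the library labelled E14 GFP- replicate 2 (2.35 ± 0.39, adjusted p = 0.00132).

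Pcdh15, whose product forms tip links in hair cells and is also made by photoreceptors, had the largest log2 change of the 78 members in GFP+ from E14 to P2. It had 0.816 and 0.0631 FPKM in E14 GFP+, 3.07 and 3.6 in E18 GFP+ and 14.5 and 6.8 in P2 GFP+. In GFP- cells it had 8.43 and 0.315 at E14, 13.4 and 13.3 at E18 and 29.7 and 74.3 at P2. The P2 GFP- replicates lay far apart, and both were above all other libraries. The change in GFP+ from E14 to P2 was 2.98 ± 0.84 log2 units (limma, adjusted p = 0.149, or 0.00685 without the library labelled E14 GFP- replicate 2). The mean of 10 photoreceptor markers also moved with age in GFP+, from 2.02 and 1.10 at E14 to 3.96 and 3.57 at P2, with 4 of 10 called higher. In GFP- it went from 2.43 in E14 replicate 1 to 6.49 and 6.89 at P2; its part in the Pcdh15 values was not tested. Pcdh20 had 1.66 and 1.41 FPKM in E18 GFP- and 0.45 and 0.251 in P2 GFP-, a log2 change of -0.91 ± 0.23 (limma, adjusted p = 0.0408). Pcdh12, known from endothelium, did not exceed 0.157 FPKM.

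**Figure D2:**
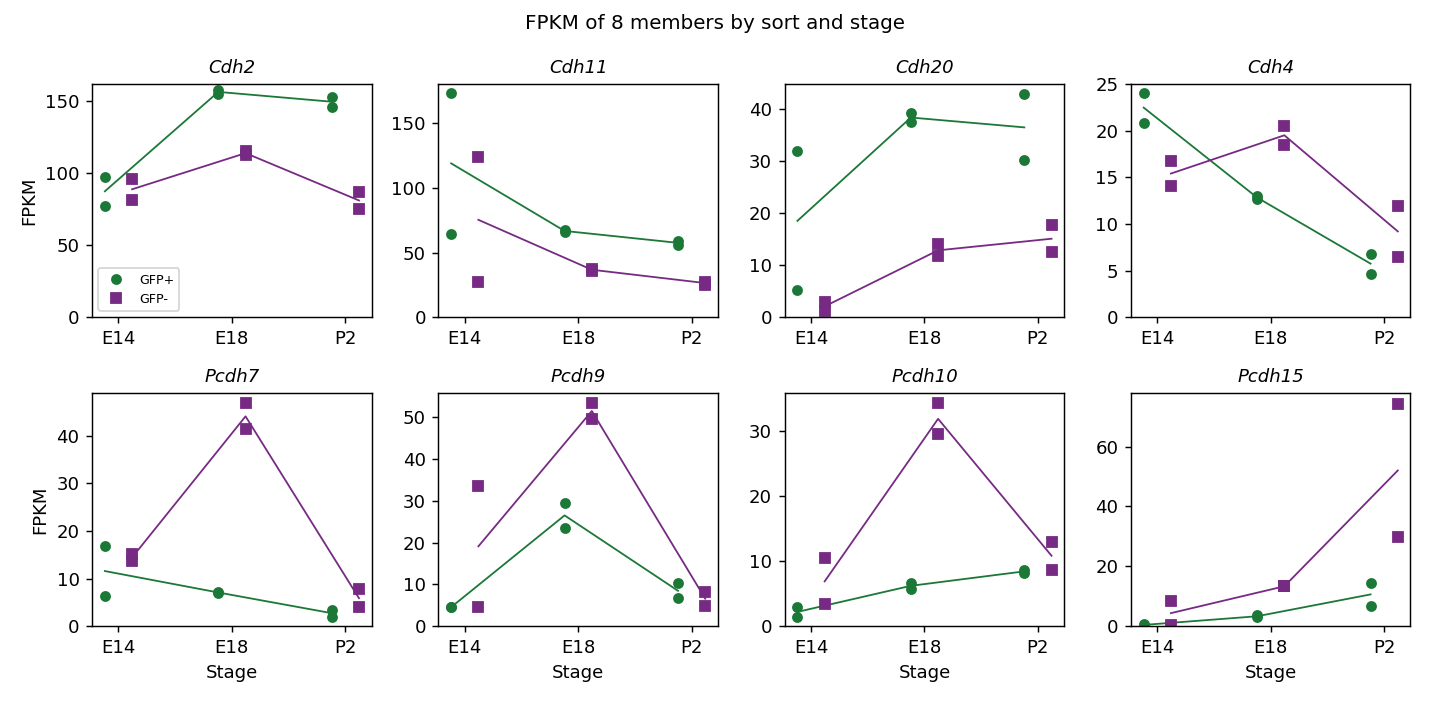
FPKM of 8 members (vertical axes from 0) at E14, E18 and P2, with each library as a point (GFP+ green circles, GFP- purple squares) and lines through the mean of 2 libraries. Cdh2, Cdh11 and Cdh20 lie higher in GFP+ at E18 and P2, while Pcdh7, Pcdh9 and Pcdh10 peak in E18 GFP- and Pcdh15 in P2 GFP-.

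The clustered protocadherins had the same order between the sorts in all 3 families. All 52 that passed the filter (11 of 13 alpha, 21 of 22 beta, 20 of 20 gamma) had negative log2 differences at E14, E18 and P2, and in all 52 both GFP+ libraries were below both GFP- libraries at E18 and at P2. Of all 14276 genes tested, 7193, 7100 and 7036 had a negative difference at these ages, and 26.8% had that order at E18 and P2. The alpha genes passed the filter only through GFP- libraries, since none reached 1 FPKM in a GFP+ library. Pcdhgc5 and some beta genes, such as Pcdhb12 and Pcdhb13, did too. For these genes the filter itself favours lower GFP+ values, so their sign, order and calls lower in GFP+ are not separate support. At E18 the median difference was -1.29 log2 units for alpha, -1.07 for beta and -0.81 for gamma. At P2 the medians were -0.69, -0.44 and -0.47. With all 12 libraries only Pcdha8 (-1.16 ± 0.16, adjusted p = 0.0151) and Pcdhgc3 were called at E18. Pcdha8 had 0.0533 and 0.147 FPKM in GFP+ and 1.48 and 1.42 in GFP- there. Without the library labelled E14 GFP- replicate 2 limma called 11 alpha, 20 beta and 19 gamma genes lower at E18, and 9, 4 and 8 at P2. The shares of all genes called lower in these fits were 22.3% and 13.7%, and the beta count at P2, 4 of 21, is near the latter. Isoforms of the alpha and gamma clusters share their last exons and the beta genes are related paralogues, so the split of reads among isoforms is uncertain; a second row with a suffix for Pcdha4, Pcdha11 and Pcdhga8 fell outside the rule.

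The families had different levels in progenitors. Summed over its 13 genes, the alpha family had 0.919 and 0.345 FPKM in E14 GFP+, 1.29 and 1.03 in E18 GFP+ and 0.685 and 0.71 in P2 GFP+. In GFP- cells the alpha sum was 47.9 in E14 replicate 1, 23.1 and 24.98 at E18 and 10.4 and 8.55 at P2. Alpha transcripts were thus near 0 in every GFP+ library, and also in the library labelled E14 GFP- replicate 2 (0.636).

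The beta sum was 36.1 and 34.3 FPKM in E18 GFP+ against 97.3 and 105 in GFP-, and 35.6 and 26.5 against 49.6 and 53.7 at P2. The gamma sum was 43.9 and 49.8 against 96.6 and 109 at E18 and 50.1 and 43.6 against 81.1 and 90.9 at P2. At E18 and P2 every GFP+ sum was below every GFP- sum of the same age for both families. At E14 the beta sum was 15.8 and 7.8 in GFP+ and 65.5 and 7.84 in GFP-, where the library labelled E14 GFP- replicate 2 lay between the GFP+ values.

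The C-type isoforms Pcdhac2 and Pcdhgc3 had the highest levels of their families at E18 in GFP- cells. Pcdhac2, a C-type alpha isoform that neurons use without random choice, had 0.313 and 0.212 FPKM in E18 GFP+ and 7.2 and 6.74 in GFP-, and 0.0984 and 0.113 FPKM in GFP+ and 3.36 and 1.98 in GFP- at P2. Its E18 difference was -2.66 ± 0.78 (limma, adjusted p = 0.087, or 4.82e-05 without the library labelled E14 GFP- replicate 2). Pcdhgc3, a C-type gamma isoform, had the highest level of the clustered genes, with 7.75 and 9.31 in E18 GFP+, 17.3 and 23.3 in E18 GFP-, 16.2 and 14.7 in P2 GFP+ and 30.03 and 32.8 in P2 GFP-. It was lower in GFP+ at E18, with a log2 difference of -1.15 ± 0.22 (limma, adjusted p = 0.036).

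Pcdhgc3 and Pcdhga8 went against their family with age. From E18 to P2, 18 of 20 gamma genes had a negative change in GFP- cells, and these 2 had a positive change. Pcdhga8 had 4.18 and 4.56 FPKM in E18 GFP- and 8.64 and 14.3 in P2 GFP-, and 24.9 in E14 GFP- replicate 1. Without the library labelled E14 GFP- replicate 2, Pcdhgc3 rose in GFP- by 0.62 ± 0.17 log2 units from E18 to P2 (limma, adjusted p = 0.0245) and Pcdhga8 by 1.18 ± 0.26 (adjusted p = 0.00915); with all 12 libraries the adjusted p were 0.113 and 0.31. The table holds a second row for Pcdhga8, so its value may be split.

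Among beta genes, Pcdhb17, Pcdhb16 and Pcdhb22 had the highest means over the 12 libraries. Pcdhb17 had 4.47 and 4.4 FPKM in E18 GFP+ and 13.98 and 14.8 in GFP-, and Pcdhb16 5.002 and 4.11 FPKM in GFP+ and 11.95 and 13.5 in GFP-. All 21 beta genes tested had a positive change in GFP+ from E14 to P2, with a median of 0.54 log2 units, against 0.00 over all genes. None of them was called with all 12 libraries. Without the library labelled E14 GFP- replicate 2, the log2 change was 1.16 ± 0.24 for Pcdhb16 and 1.13 ± 0.24 for Pcdhb17.

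**Figure D3:**
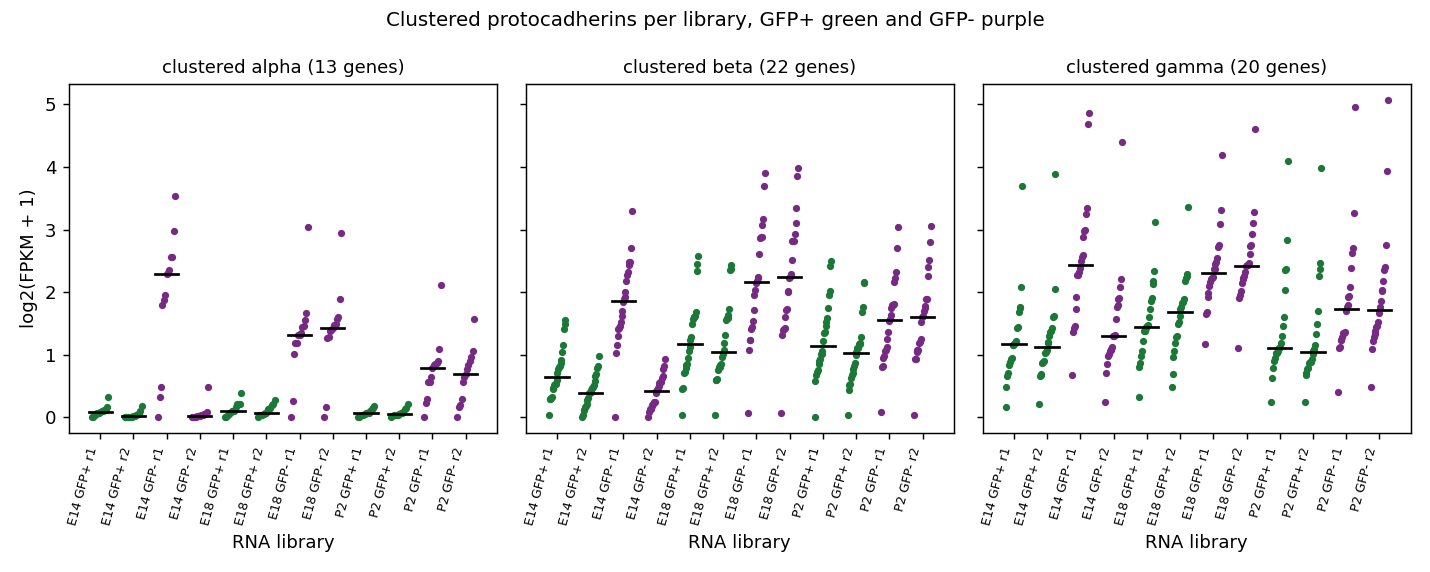
log2(FPKM + 1) of every clustered protocadherin (points) in each RNA library for the alpha, beta and gamma families, with the family median as a black bar; GFP+ libraries are green and GFP- libraries purple. The alpha points lie near 0 in every GFP+ library, and the purple column of the library labelled E14 GFP- replicate 2 sits with the green ones.

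Most age changes called between E18 and P2 were lower values in post-mitotic cells. In GFP- from E18 to P2, the 12-library fit called 8 members lower (background 5.21%) and none higher: Cdh4, Pcdh7, Pcdh9, Pcdh20, Pcdha8, Pcdhgb4, Pcdhgb5 and Pcdhgc5. In GFP+ from E18 to P2 it called Pcdhgb4 alone, with a log2 change of -0.88 ± 0.19 (background 3.51%), and from E14 to P2 Cdh4 alone (background 0.217%). Pcdhgb4 fell in both sorts, from 2.61 and 2.6 to 1.1 and 0.82 FPKM in GFP+ and from 4.19 and 3.66 to 1.18 and 1.53 in GFP-. The mean of 8 ganglion cell markers moved with the change in GFP-, from 5.19 and 5.43 at E18 to 2.28 and 1.33 at P2, and all 8 had a negative change (median -3.89). Their part in the members' changes was not tested.

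Without the library labelled E14 GFP- replicate 2, 43 members were lower and 4 higher in GFP- from E18 to P2 (background 17.1% and 15.6%). In GFP+ over the same interval, 9 were lower and 2 higher (background 12.4% and 12.9%). From E14 to P2 in GFP+, 4 were lower and 13 higher (background 6.0% and 6.85%). Pcdh15, Pcdh10 and Pcdh8 were among those that rose, and Cdh9, Cdh4, Pcdh7 and Pcdh19 were the 4 that fell.

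The difference between sorts was itself compared between E18 and P2. The interaction was positive, meaning a less negative or more positive difference between GFP+ and GFP- at P2, in 51 of 52 clustered members, and in 69 of the 78 members tested, against 6699 of 14276 genes. It was also positive in all 8 ganglion cell markers (median 2.75), whose part was not tested. Alpha genes were near 0 in GFP+ at both ages. For them the interaction mostly restates the GFP- change from E18 to P2, which was negative in all 11. The interaction passed the limma threshold for no member in either fit. With all 12 libraries an unadjusted p under 0.05 was reached by 3 of the 78 members (Pcdha8, Pcdh10 and Pcdh7). The share over all genes, 462 of 14276, was near that. For Pcdha8 the interaction was 0.97 ± 0.23 log2 units (adjusted p = 0.418), and for Pcdh10 1.88 ± 0.63 (adjusted p = 1).

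The cytoplasmic partners of the cadherins were compared at E18 without the library labelled E14 GFP- replicate 2, a fit in which 20.3% of all genes were called higher and 22.3% lower in GFP+. Of 12 tested genes of cell junctions, 6 were higher and 3 lower (limma), the latter near the background share, and with all 12 libraries none was called. Ctnna1, the general alpha-catenin, had 77.5 and 86.4 FPKM in GFP+ and 37.2 and 39.9 in GFP-, while the neuronal alpha-catenin Ctnna2 had 12.3 and 11.9 FPKM in GFP+ and 64.04 and 70.1 in GFP-. The differences were 1.07 ± 0.11 (adjusted p = 0.000235) and -2.37 ± 0.23 (adjusted p = 0.000139). Plakoglobin, Jup, which can replace beta-catenin, was lower in GFP+ with a log2 difference of -2.27 ± 0.16.

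Of 13 tested relatives of the cadherins, 8 were lower and 2 higher in GFP+ at E18 in the same fit, against the same 22.3% and 20.3% of all genes. Celsr3, a planar polarity cadherin of axons, had 4.46 and 6.54 FPKM in GFP+ and 35.04 and 38.3 in GFP-, and the giant cadherin Dchs1 had 10.1 and 10.4 FPKM in GFP+ and 23.6 and 29.6 in GFP-. For both the sorts were apart (log2 differences -2.55 ± 0.34 and -1.28 ± 0.20). Of 12 tested genes that act on the protocadherin clusters, such as CTCF and cohesin, 5 were higher and 2 lower in GFP+, the latter below the background share. The cohesin subunits Stag2 (1.12 ± 0.14), Smc1a (0.67 ± 0.13) and Rad21 (0.77 ± 0.16) were among the higher ones. Of 11 tested effectors of protocadherins, 1 was higher and 4 were lower, among them the WAVE complex genes Cyfip2 and Wasf1. The share of effectors called higher was below the background. Cyfip2 had 9.72 and 10.8 FPKM in GFP+ and 19.2 and 24.3 in GFP-, and Wasf1 2.57 and 2.66 FPKM in GFP+ and 4.997 and 5.19 in GFP-. Of 7 tested cadherin repressors and proteases, Mmp14 alone was called, higher by 0.68 ± 0.12 log2 units, which is also below the background share. With all 12 libraries limma called at E18 0 higher and 0 lower junction genes, 0 higher and 1 lower relatives, 1 higher and 0 lower cluster regulators, 0 higher and 0 lower effectors, and 0 higher and 0 lower repressors and proteases.

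In chromatin of GFP+ cells, most starts of classical and delta members were open by a ratio of central to outer counts, and most clustered starts had low ratios. Openness is given as the ratio of counts in the central 1.2 kb to counts in the 6 outermost windows of 200 bp, pooled over the 12 libraries from E12.5 on. A ratio of 5 or more was reached by 55.97% of all 28329 regions. It was reached by 5 of 5 type I, 13 of 16 type II, 5 of 6 delta-1 and 5 of 5 delta-2 starts. The 16 type II starts belong to 13 genes and the 6 delta-1 starts to 4, with overlapping regions for Cdh7, Cdh10 and Pcdh9. Of the clustered starts, 3 of 14 alpha, 4 of 22 beta and 8 of 22 gamma starts reached it. The highest clustered ratios belonged to C-type isoforms, with 58.9 for Pcdhgc3, 46.1 for Pcdhac1 and 38.9 for Pcdhac2, followed by Pcdhgc4 with 11.9; Pcdhgc5 had 0.252. The clusters lie on mouse chromosome 18, and 52 of the 58 clustered regions overlap another member region, so their counts are not independent. The outermost windows of such a region can also hold signal of a neighbouring start, which lowers its ratio. At Pcdhgc5 the outermost windows held 5484 counts and the centre 1379. Median central counts, which do not use those windows, were 481 for alpha, 657.5 for beta and 1248.5 for gamma starts. Over all regions the median was 5877.

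**Figure D4:**
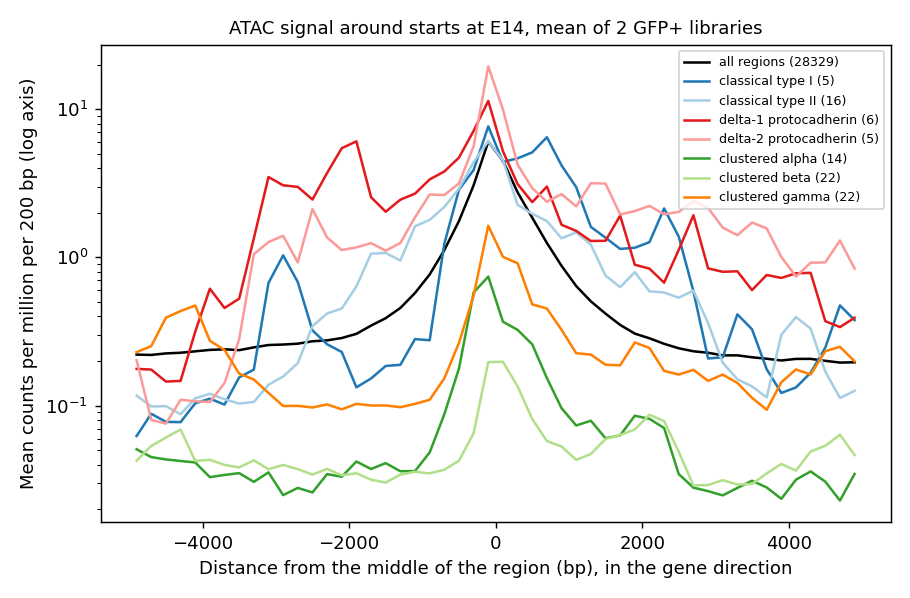
Mean ATAC CPM (counts scaled by library size) in 200 bp windows (log axis) against the distance from the middle of the region, in bp along the gene, at E14 over 2 GFP+ libraries, for 7 classes of members and all regions (number of regions in brackets). The delta and classical classes peak at or above the black line of all regions, and the clustered classes peak below it.

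Promoter sequences are shown for 4 members as examples of starts whose signal changed with age. The 4 were picked after their values were seen, from those the RefSeq table holds. From E12.5 to P0, Cdh12 and Pcdh20 lost accessibility and Cdh22 gained it. Pcdh15 gained it over another interval, from E14 to P2. The sequences are 300 bases each from RefSeq (GRCm38.p6), from 250 bases before to 50 after the annotated start, 5′ to 3′ on the gene's strand, with CG dinucleotides in capitals. The table held 25 promoters of 22 members. Whether these starts are the middles of the counted regions, which are in mm9, was not compared. The windows are chr15:21111202-21111501 (plus strand) for Cdh12, chr14:88471347-88471646 (minus) for Pcdh20, chr2:165234688-165234987 (minus) for Cdh22 and chr10:73821617-73821916 (plus) for Pcdh15.
Cdh12: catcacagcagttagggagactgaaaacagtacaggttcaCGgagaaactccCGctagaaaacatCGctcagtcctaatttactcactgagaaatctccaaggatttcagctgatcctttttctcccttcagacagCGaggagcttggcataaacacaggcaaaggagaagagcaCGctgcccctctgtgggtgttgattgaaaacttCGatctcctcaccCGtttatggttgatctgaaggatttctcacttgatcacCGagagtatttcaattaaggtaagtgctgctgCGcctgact
Pcdh20: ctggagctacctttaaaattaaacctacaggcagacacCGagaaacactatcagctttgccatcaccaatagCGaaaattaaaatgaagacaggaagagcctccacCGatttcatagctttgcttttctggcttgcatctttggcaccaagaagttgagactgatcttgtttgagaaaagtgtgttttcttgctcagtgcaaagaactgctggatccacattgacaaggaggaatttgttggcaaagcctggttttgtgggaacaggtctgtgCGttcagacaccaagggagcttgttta
Cdh22: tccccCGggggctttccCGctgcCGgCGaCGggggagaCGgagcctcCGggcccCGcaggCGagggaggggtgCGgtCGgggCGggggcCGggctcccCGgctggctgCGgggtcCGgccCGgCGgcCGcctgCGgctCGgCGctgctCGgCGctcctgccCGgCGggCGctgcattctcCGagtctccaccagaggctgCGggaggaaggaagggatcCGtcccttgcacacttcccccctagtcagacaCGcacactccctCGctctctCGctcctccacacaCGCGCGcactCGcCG
Pcdh15: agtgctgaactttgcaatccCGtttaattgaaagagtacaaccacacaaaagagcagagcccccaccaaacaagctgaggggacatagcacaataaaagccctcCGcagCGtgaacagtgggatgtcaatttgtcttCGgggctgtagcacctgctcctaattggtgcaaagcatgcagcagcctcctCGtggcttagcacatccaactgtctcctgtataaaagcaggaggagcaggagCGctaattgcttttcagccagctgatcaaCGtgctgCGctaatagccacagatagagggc
The Cdh22 promoter held 38 CG dinucleotides, more than 95.05% of the 32851 promoters in the table. Pcdh20 held 4, Pcdh15 8 and Cdh12 9, against a median of 7 over the table and 14 over the 25 member promoters.

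Accessibility around starts was compared from E12.5 to P0. The ratio of central to outermost counts over all regions was 13.1 and 12.1 at E12.5 and 16.99 and 17.6 at P0, and its part in the changes was not tested. With edgeR, 15 of 98 member regions were called higher at P0 and 24 lower, against 29.9% and 32% of 27902 regions tested. In the central 1.2 kb alone, 8 were higher and 16 lower (background 24.5% and 22.5%). Over exons, 6 of 92 member genes were higher and 19 lower (background 23% and 19%). The share of members called was below the background in each of these, except for exons called lower. By class, 11 of 16 type II starts were lower and 4 higher, while 3 of 5 type I starts were higher and 1 lower. The 16 type II starts belong to 13 genes and the 15 called to 12, because Cdh7 and Cdh10 have overlapping regions that share most reads. All 14 alpha starts had a negative change (median -0.99, against 0.01 over all regions), and 7 were called. Of 22 starts each, 1 beta start was lower, and 4 gamma starts were higher.

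Starts of 4 type II cadherins and of Pcdh20 lost accessibility in progenitors with age. At the Cdh12 start (chr15:21036207-21046206 in mm9) CPM were 44.1 and 50.01 at E12.5, 21.9 and 21.1 at E14, 17.7 and 16.9 at E18 and 18.1 and 19.02 at P0, a log2 change of -1.35 ± 0.14 from E12.5 to P0 (edgeR, adjusted p = 5.32e-13). The E12.5 libraries were above all later ones, and from E14 to P2 the region was called higher again (0.42 ± 0.13, adjusted p = 0.00971). Without P2 replicate 2 the change from E14 was smaller, at 0.23 ± 0.12. At the Cdh18 start (chr15:22961218-22971217) CPM were 82.8 and 88.7 at E12.5 and 37.2 and 40.1 at P0 (-1.15 ± 0.14, adjusted p = 1.17e-10).

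The Cdh8 start (chr8:101935371-101945370) had 69.4 and 75.3 CPM at E12.5, 69.7 and 66.9 at E14 and 32.6 and 37.9 at P0 (log2 change -1.04 ± 0.15, edgeR adjusted p = 1.16e-08). The Cdh6 start (chr15:13098430-13108429) had 98.8 and 102 at E12.5, 107 and 106 at E14 and 54.4 and 58.2 at P0 (log2 change -0.84 ± 0.16, adjusted p = 1.34e-05). E14 stood near E12.5 for both genes, and both were called lower from E14 to P2 as well.

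Pcdh20, an atypical protocadherin with a low RNA level, had 73.3 and 75.4 CPM at E12.5, 64.9 and 57.1 at E14, 41.9 and 35.6 at E18 and 30.8 and 38.8 at P0 around its start (chr14:88866203-88876202). The log2 change from E12.5 to P0 was -1.10 ± 0.14 (edgeR, adjusted p = 1.81e-09), and in the central 1.2 kb -1.38 ± 0.15 (adjusted p = 3.34e-17). The C-type alpha starts were also lower at P0, with log2 changes of -0.74 ± 0.21 for Pcdhac1 and -0.71 ± 0.13 for Pcdhac2.

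Cdh2, Cdh4, Cdh11 and Cdh22 gained accessibility from E12.5 to P0. Around the Cdh2 start there were 127 and 121 CPM at E12.5, 177 and 176 at E14, 209.7 and 226 at E16.5 and 218 and 229 at P0 (log2 change 0.85 ± 0.21, edgeR adjusted p = 0.000682). The P2 libraries of Cdh2 disagreed, with 199.8 and 127. Cdh22 had 34.1 and 31.3 at E12.5, 50.99 and 49.4 at P0 and 66.7 and 58.4 at P2 around its start (chr2:165055237-165065236), a change of 0.62 ± 0.13 to P0 (adjusted p = 9.78e-05). Cdh4 rose by 0.66 ± 0.16 and Cdh11 by 0.47 ± 0.19. The RNA covers another interval, from E14 to P2. Over it Cdh4 RNA fell in GFP+, and Cdh2 RNA had a log2 change of 0.78, not called with all 12 libraries (limma, adjusted p = 0.0571). Start signal over that interval, without P2 replicate 2, changed by 0.16 ± 0.09 for Cdh4 and 0.18 ± 0.08 for Cdh2. Changes over unlike intervals are not comparable, so no order between RNA and start signal is drawn from those to P0.

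**Figure D5:**
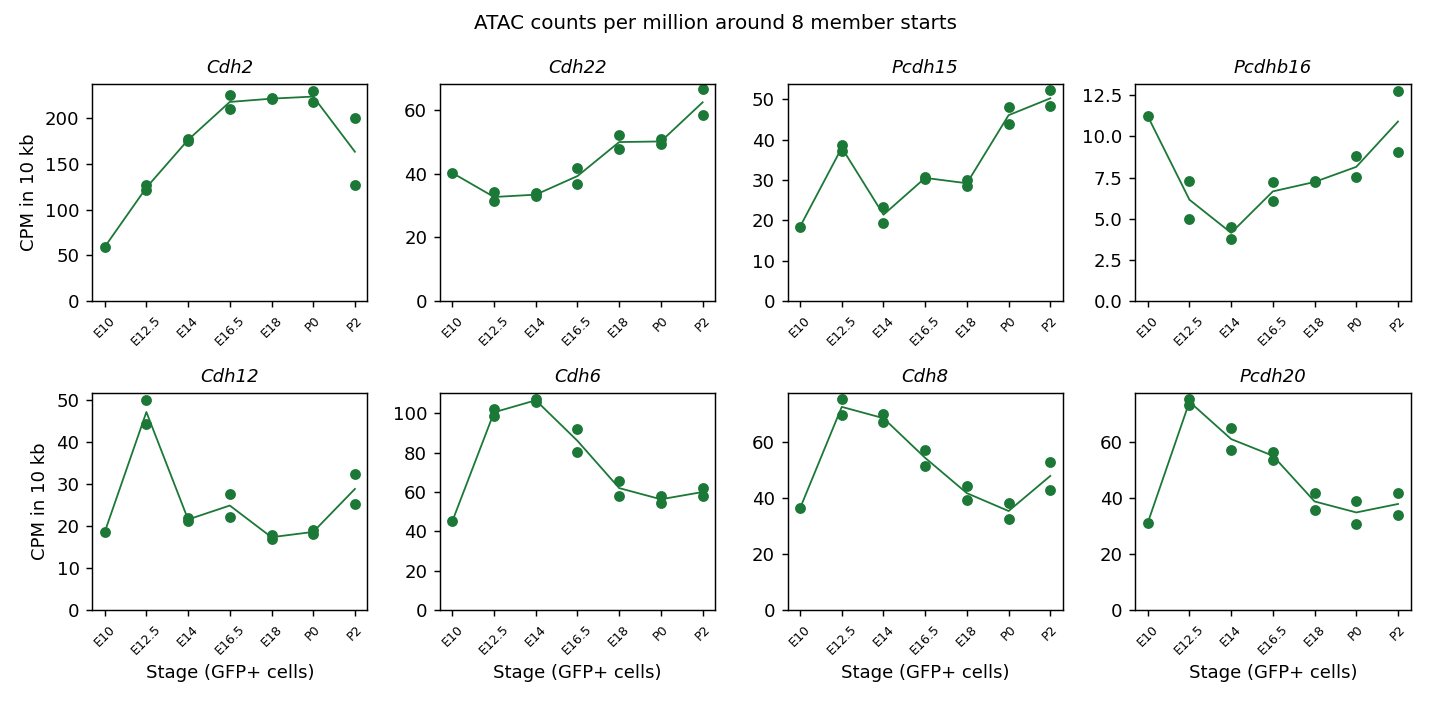
ATAC CPM in the 10 kb around 8 member starts (vertical axes from 0) in GFP+ cells by stage; points are libraries and the line joins stage means, with 1 library at E10. Cdh2 and Cdh22 lie higher at P0 than at E12.5, and Cdh12, Cdh6, Cdh8 and Pcdh20 lie lower.

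From E14 to P2 most of the member starts called higher belonged to beta protocadherins. edgeR called 28 of 98 member regions higher and 9 lower (background 14.7% and 16.5%). All 22 beta starts had a positive change, with a median of 1.17 log2 units, and 17 were called; the median over all regions was 0.02. In the central 1.2 kb, 26 member regions were higher and 7 lower (background 9.82% and 14.5%), with 16 beta starts among the higher. The median beta start had 4.97 and 6.76 CPM at E12.5, 2.88 and 2.46 at E14, 4.55 and 4.68 at P0 and 5.02 and 7.49 at P2. E14 was the lowest stage, all 14 alpha starts also had a positive change from it (median 0.90, 1 called), and the beta value at E10 was 7.97.

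Other starts with little enrichment moved the same way at P2. Of 11999 regions of other genes with a ratio under 5, 21.98% were called higher from E14 to P2 and their median change was 0.54 log2 units. The ratio of central to outermost counts over all regions was 8.41 in P2 replicate 2 and 14.5 in P2 replicate 1. Without P2 replicate 2, 13 beta starts were called higher, with a median change of 0.89, and the median of the other low-ratio starts was 0.08. In that fit 12.6% of the other low-ratio starts and 14.4% of the other starts with a ratio of 5 or more were called higher. Leaving out P2 replicate 1 instead raised the number of members called, and the share of all regions called in that fit is not given here.

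Outside the clusters, Pcdh15 gained signal at an open start, with 23.4 and 19.4 CPM at E14 and 48.3 and 52.2 at P2 (chr10:73279615-73289614; log2 change 1.23 ± 0.12, edgeR adjusted p = 9.67e-14). It stood at 38.8 and 37.2 at E12.5, so E14 was the lowest stage after E10. The 10 kb around Cdh5 also gained (1.78 ± 0.13), but its ratio of 0.64 means fewer counts in the centre than in the outermost windows. Pcdh7 lost signal from 239 and 238 to 150.2 and 134 CPM (-0.75 ± 0.21, adjusted p = 0.00442).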

How the data were processed

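RNA-seq gave the authors' deposited FPKM values per gene for 12 libraries; the unit was inferred from the deposited values and labels. ATAC-seq gave deposited read counts over exons per gene and in 200 bp windows around gene starts (mm9) for 13 libraries. The submitters' processing notes name HISAT2, Bowtie2, Picard 2.10.7, SAMtools 1.5, bedtools 2.26.0 and featureCounts 1.5.3, with mm10 and mm9 as builds; which build the RNA used is not given in the sources used here. Every sample column of the 3 tables was used.

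RNA was tested with limma 3.58.1 (intensity trend) on log2(FPKM + 1) over genes that reached 1 FPKM in 2 or more libraries, with 6 group means and 6 residual degrees of freedom; fold changes on this scale understate those of low genes. Runs of 50 windows were summed to 10 kb, and counts were tested with edgeR 4.0.16 (quasi-likelihood, TMM, filterByExpr). p-values were adjusted by Benjamini-Hochberg over all features. R was 4.3.3. Both tests were run on simulated data with planted changes and independent noise. Those data held no outlying library and no overlapping regions that share reads, so that run says nothing about these features. Alternatives were other scalings, filters and pseudocounts, left-out libraries, a replicate block and DESeq2 1.42.0. RNA replicate numbers were not used as pairs, since the deviations of same-numbered libraries correlated at 0.36, 0.11 and -0.56 at E14, E18 and P2.

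The members and gene lists were chosen with earlier results of these data known. The rule named members that reached 5 FPKM on average in a group or passed a threshold, and in any case Cdh1, Cdh2, Cdh3, Cdh4, Cdh5, Cdh11, Cdh13, Pcdh15, Pcdhac2 and Pcdhgc3; others are given by ranges and counts. Of each list of partner genes, up to 4 with the smallest p in a contrast were named. Features named outside it (low members of a class, Pcdhgc4) and the 4 promoters were picked after their values were seen. Sequences of chromosome 18 are not printed. Drawing used Python 3.11.15 and matplotlib 3.10.9.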

Additional observations from a re-analysis of the deposited data

How the results depend on the processing

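The RNA counts of called members depended on the library labelled E14 GFP- replicate 2 and on which libraries shared the estimate of spread. The counts in this section, for RNA and ATAC, cover members alone. Shares of all genes called also differed between fits, as given above for the fits with and without that library. They are not given for the other fits, so the counts describe the fits and not the members. Without that library the counts went from 0 to 62 for the sort at E14, from 5 to 61 at E18, from 1 to 30 at P2, from 1 to 17 in GFP+ from E14 to P2, from 1 to 11 in GFP+ from E18 to P2 and from 8 to 47 in GFP- from E18 to P2. With only the groups compared they were 67 at E18, 23 at P2, 0 in GFP+ from E14 to P2, 20 in GFP+ and 46 in GFP- from E18 to P2, and 2 for the interaction. Alternatives chosen after seeing the data gave, without the E14 libraries, 67 at E18, 38 at P2, 21 in GFP+ and 54 in GFP- from E18 to P2. Without both E14 libraries numbered 2 there were 63 for the sort at E14 and 9 in GFP+ from E14 to P2, and rescaling without histone, mitochondrial, Malat1 and Lars2 rows gave 11 at E18 and 2 in GFP+ from E18 to P2. A pseudocount of 0.1 gave 0 at E18, 2 in GFP+ from E14 to P2, 2 in GFP+ and 5 in GFP- from E18 to P2; quantile scaling gave 0 at P2; no filter gave 0 in GFP+ from E18 to P2 and 1 for the interaction. Leaving out in turn each library of the groups compared gave 0 to 62 for the sort at E14, 0 to 0 at E18 and at P2, 0 to 6 in GFP+ from E14 to P2, 0 to 0 in GFP+ and 0 to 3 in GFP- from E18 to P2, 11 to 20 for ATAC exons and, for starts, 17 to 29 from E12.5 to P0 and 12 to 72 from E14 to P2. With the replicate block limma called 0 members at E14, E18 and P2, 0 in GFP+ from E14 to P2, 1 in GFP+ and 6 in GFP- from E18 to P2 and 0 for the interaction; edgeR called 26 for exons and 39 and 36 for starts. Same-numbered ATAC libraries had deviations correlated between -0.26 and 0.33 over 15 stage pairs, so the numbers were not taken as pairs. The central 1.2 kb gave 24 starts from E12.5 to P0, and leaving out P2 replicate 1 and the E10 library gave 72 from E14 to P2. Of 985 alternatives for single starts and exons 768 kept their call, 214 lost it and 3 reversed, all in the central 1.2 kb: Cdh10 (0.017) and Cdh17 (-1.18) from E12.5 to P0 and Pcdhgc5 (0.16) from E14 to P2. Of 186 for single RNA changes 107 kept their call, 79 lost it and 0 reversed. Where no cause is named, the cause was not tested. The RNA file carries no depth, and low counts at alpha and beta starts limit their precision.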
